A study of Homo sapiens with 16 samples.

Results

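The 28 genes described here make cholesterol and fatty acids or control that synthesis. They were taken by symbol from a fixed list of genes driven by the sterol regulatory element-binding proteins (SREBPs), out of 62754 genes in the count table. All 28 were found, and all 28 were among the 24515 genes that passed the filter on low counts. By role, 8 belong to the mevalonate arm, 12 lead from squalene to cholesterol, 5 are regulators, 1 carries sterols and 2 make fatty acids.

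The genes were measured by bulk sequencing of total RNA from whole planar cultures of stem-cell-derived islets. All cultures came from HUES08, an established human embryonic stem cell line of wild-type genotype, and followed the standard differentiation. The 8 groups held 2 libraries each, 16 in all, and every library carried batch label 1. Treatment ran from stage 5 through 7 days of stage 6 in every group, the controls receiving the solvent DMSO. Of the 7 treated groups, 1 received colchicine at 10 nM, a drug that binds tubulin. The others received epirizole (an anti-inflammatory drug) at 2.5 uM, Ly-294002 (an inhibitor of phosphoinositide kinases) at 120 nM, moxifloxacin (an antibiotic) at 1.1 uM, rottlerin (a plant compound used as a kinase inhibitor) at 1.23 uM, vardenafil (a phosphodiesterase inhibitor) at 125 nM or rimonabant (a cannabinoid receptor antagonist) at 125 nM. The compounds had been chosen computationally, from transcriptional signatures, as candidates to act on beta cell maturation. The labels do not say if paired libraries derive from independent cultures, so each p-value reflects only how far these libraries scatter, and that scatter may be technical.

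Cholesterol is built from acetyl-CoA through mevalonate, isoprenoid diphosphates, squalene and lanosterol. When the endoplasmic reticulum membrane is short of sterol, SCAP escorts the SREBP precursors to the Golgi, where they are cleaved to active transcription factors. When sterol is plentiful, the INSIG proteins hold SCAP back, and transcription of the synthesis genes falls. SREBF2 encodes the factor that acts mainly on sterol genes, and SREBF1 the one that acts mainly on fatty acid genes. In islets, membrane cholesterol is known to bear on insulin granules and on secretion.

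Factors that act on these promoters bind short motifs, so the 250 bases before the RefSeq start site were searched on both strands in the GRCh38.p14 promoter table, which held 24 of the 28 genes. The sterol regulatory element was searched as TCACNCCAC, the CCAAT box as CCAAT, an E-box form bound by SREBPs as TCACGTGA, and the GC box as GGGCGG, and none of these motifs contains another. The sterol regulatory element was present in 1 of the 24, SREBF2, against 0.883% of 35116 promoters of the same length. The E-box form was present in 1, INSIG1, against 0.854% of promoters and 1.13% of the 22199 promoters of coding genes. The CCAAT box was present in 16 of 24 (66.7%), against 32.0% of promoters and 32.7% of coding ones. The GC box was present in 21 (87.5%), against 42.6% of promoters and 53.7% of coding ones. A match describes letters and is not a bound site. Motifs spelled otherwise or lying outside these 250 bases were not searched, so a promoter without a match may still hold such an element. ACAT2, FDFT1, SQLE and FASN had no promoter entry and were not searched. The 4 stretches below are of genes whose RNA is described in detail, each 5′ to 3′ on the gene's own strand, ending where the first annotated exon begins, with CCAAT boxes (ATTGG on the other strand) and the sterol regulatory element in capitals. SREBF2 lies at chr22:41832855-41833078 on the plus strand and carries the sterol regulatory element followed by a CCAAT box. MVD at chr16:88663162-88663341 on the minus strand carries 3 CCAAT boxes. TM7SF2 at chr11:65111622-65111844 on the plus strand and LSS at chr21:46228825-46229024 on the minus strand carry 1 each.
SREBF2: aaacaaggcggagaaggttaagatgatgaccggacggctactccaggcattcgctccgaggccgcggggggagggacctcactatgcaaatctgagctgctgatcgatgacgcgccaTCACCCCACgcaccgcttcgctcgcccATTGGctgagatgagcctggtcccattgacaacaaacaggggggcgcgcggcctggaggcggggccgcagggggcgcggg
MVD: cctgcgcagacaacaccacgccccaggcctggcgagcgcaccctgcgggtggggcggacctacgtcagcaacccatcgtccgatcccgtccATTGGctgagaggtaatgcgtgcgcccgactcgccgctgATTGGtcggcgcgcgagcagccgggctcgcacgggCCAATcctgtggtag
TM7SF2: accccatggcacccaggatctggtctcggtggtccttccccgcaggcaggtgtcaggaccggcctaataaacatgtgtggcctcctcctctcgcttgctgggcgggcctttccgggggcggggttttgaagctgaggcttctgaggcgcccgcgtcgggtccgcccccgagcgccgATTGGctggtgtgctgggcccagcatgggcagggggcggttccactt
LSS: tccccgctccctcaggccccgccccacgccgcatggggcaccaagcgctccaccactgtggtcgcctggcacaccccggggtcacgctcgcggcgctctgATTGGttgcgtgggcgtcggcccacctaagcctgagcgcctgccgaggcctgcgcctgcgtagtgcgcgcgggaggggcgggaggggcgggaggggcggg

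Library totals ran from 23294377 to 30701868 reads, and the 28 genes together took 0.330% to 0.438% of them. Levels are given as TMM CPM, that is read counts scaled by library total and TMM factor. The cultures held little RNA of most of 7 beta cell markers: insulin (INS) lay between 0.652 and 6.25 TMM CPM, and IAPP had at most 1 read in any library. MAFA reached at most 0.36 TMM CPM, G6PC2 0.29 and UCN3 0.70. NKX6-1 lay between 0.359 and 8.93, and PDX1 was higher, between 22.65 and 53.74. RNA of some genes of other lineages was plentiful, with the fetal liver and gut gene AFP between 2570.0 and 6982 TMM CPM and the mesenchymal collagen COL3A1 between 435 and 1250.0. These were the highest markers of their lists, which also held AHSG at 1.41 to 9.52 and TWIST1 at 2.19 to 21.6 TMM CPM. In bulk RNA, fewer cells of a type and less RNA per cell cannot be told apart.

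Levels of the 28 genes spanned from 1.46 to 102 TMM CPM per kilobase of exon (median of 16 libraries). SCD, the desaturase that makes monounsaturated fatty acids, was highest at 102, followed by HMGCS1 at 101.5, the methylsterol oxidase MSMO1 at 83.3 and the fatty acid synthase FASN at 47.8. The per-kilobase ranges of SCD and HMGCS1 overlapped over the libraries, so their order is not resolved. CYP51A1 was lowest at 1.46, below the geranylgeranyl diphosphate synthase GGPS1 at 3.05 and the ketosteroid reductase HSD17B7 at 3.15. That place holds for a length of 3584 exon bases, of which 602 are not shared with other genes, and the level per kilobase would be higher if reads were counted only in those. CYP51A1 was also the gene that varied most, 2.63-fold between its lowest and highest library, and LBR the one that varied least, 1.24-fold.

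**Figure D1:**
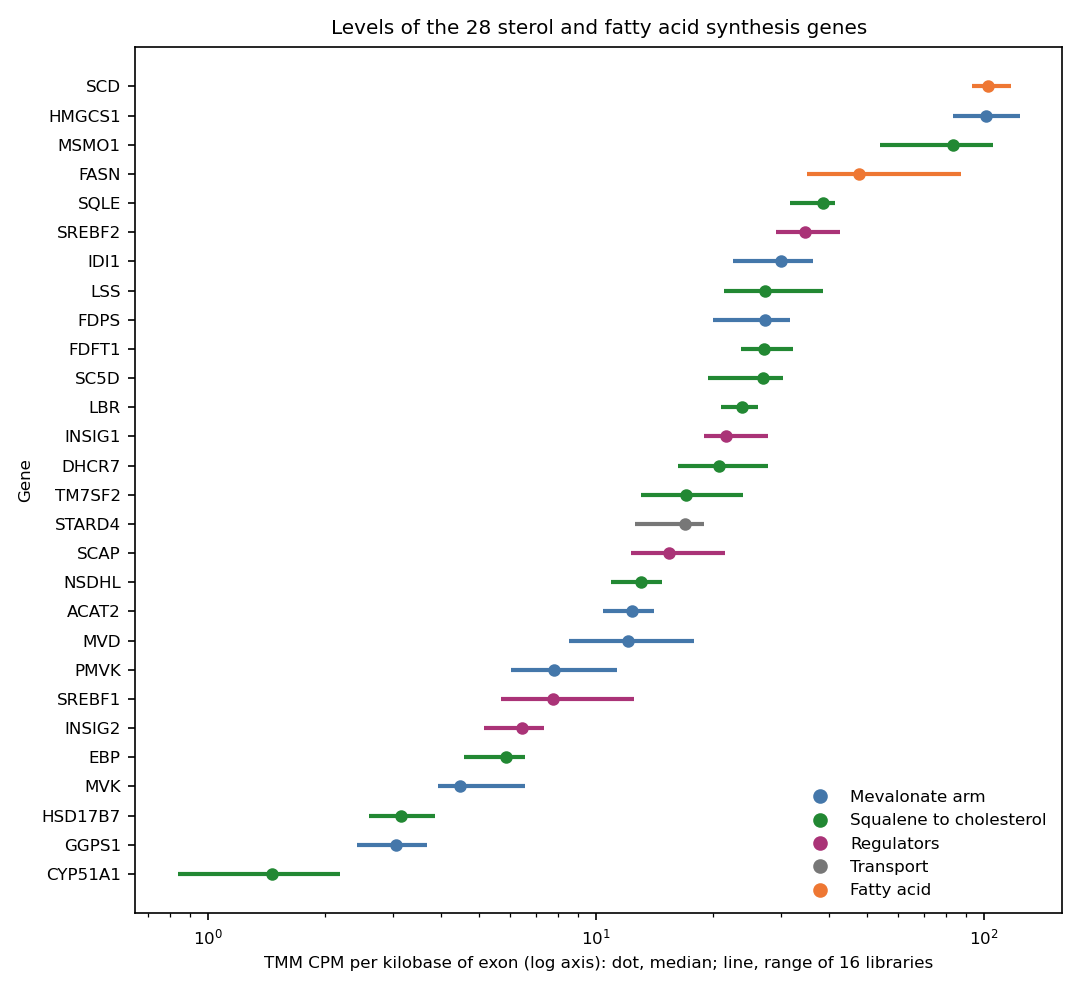
TMM CPM per kilobase of exon (log axis) for the 28 genes; dots are medians and lines the ranges over 16 libraries, coloured by role. SCD and HMGCS1 sit near 102 and CYP51A1, over its whole exon length, at 1.46.

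Rimonabant was the 1 compound under which any of these genes passed in the main edgeR fit, and all that passed were higher than in DMSO. That fit used TMM factors, the filter on low counts and all 16 libraries. Unless another setting is named, edgeR stands for that fit. The 9 genes were the mevalonate arm enzymes MVD and FDPS, the sterol enzymes LSS, CYP51A1 and TM7SF2, the regulators SREBF1, SREBF2 and SCAP, and FASN. Their log2 changes ran from 0.42 to 1.20 (edgeR, adjusted p = 0.012 to 0.0181). Among all tested genes 7.8% were called under rimonabant and 5.03% were called higher, against 32.1% of these 28. DESeq2 called the same 9, against 18.5% of the 15484 genes to which it gave an adjusted p. DESeq2 leaves the adjusted p of some genes empty, and its shares here and below are of the genes that had one. At an unadjusted threshold of 0.05, edgeR's quasi-likelihood test had 16 of the 28, against 24.8% of all genes. The median log2 change of the 28 was 0.25, beside 0.00 for all tested genes.

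The call depended on single libraries: it was 0 of 28 without DMSO 1, without DMSO 2 or without Rimonabant 2, and was 14 (11 higher and 3 lower) without Rimonabant 1. Where the count was 0, edgeR had 11, 16 and 11 of the 28 under an unadjusted p of 0.05, in that order, and DESeq2 was not run without these libraries. Over all genes edgeR called 1913 with every library, 0 in each of those 3 fits and 3913 without Rimonabant 1, so the count moved with that of all genes. With an offset for GC content, described below, the count was also 0. Without Rimonabant 2, 22 of the 28 lay above DMSO, with a median of 0.20, and with both libraries 19 did. All 7 comparisons share the same 2 DMSO libraries.

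No gene of the 28 passed in edgeR under the other 6 compounds. Under rottlerin the smallest adjusted p was 0.0591 and 14 were under an unadjusted p of 0.05 (14.8% of all genes), with 0.00816% of all genes called. DESeq2 called 11 of the 28 higher under rottlerin, the 9 named above with DHCR7 and INSIG1, against 4.37% of 15009 genes. Under colchicine the smallest adjusted p was 0.0536 and 13 were under an unadjusted p of 0.05 (17.5%), with 0.196% of all genes called. DESeq2 called 8 higher under colchicine, the same 9 without SREBF2, against 5.35% of 16910 genes. Colchicine and rottlerin thus gave calls in DESeq2 and none in the main edgeR fit, while some other edgeR settings, given below, also gave calls.

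With epirizole, Ly-294002, moxifloxacin and vardenafil, 0% of all genes were called in edgeR. Of the 28 genes, 4, 1, 9 and 0 were under an unadjusted p of 0.05 in these comparisons, in that order. The shares of all genes were 5.26%, 4.69%, 11.9% and 5.22%. DESeq2 called 0 of the 28 in each of the 4, where it called 0%, 0%, 0.459% and 0.00816% of 24515, 24515, 12633 and 24515 genes.

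Tests that used several compounds at once called none of the 28 in edgeR. For the mean of the 7 compounds against DMSO the smallest adjusted p was 0.0954, 11 of the 28 were under an unadjusted p of 0.05 (16.6% of all genes) and 0% of all genes were called. DESeq2 called 9 of the 28 there, against 5.04% of 13583 genes. The joint test of any compound gave 15 under an unadjusted p of 0.05 (12.9%), 0.00408% of all genes called, and 11 of the 28 in DESeq2 (7.4% of 16435 genes). The joint test among the 7 compounds, which leaves DMSO out of the contrast, gave 13 under an unadjusted p of 0.05 (9.01%), 0.00408% of all genes called, and 6 of the 28 in DESeq2 (2.46% of 16435 genes). A difference between compounds in these genes was therefore called by DESeq2 and not by the main edgeR fit. Without the filter on low counts edgeR called 10 of the 28 there.

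**Figure D2:**
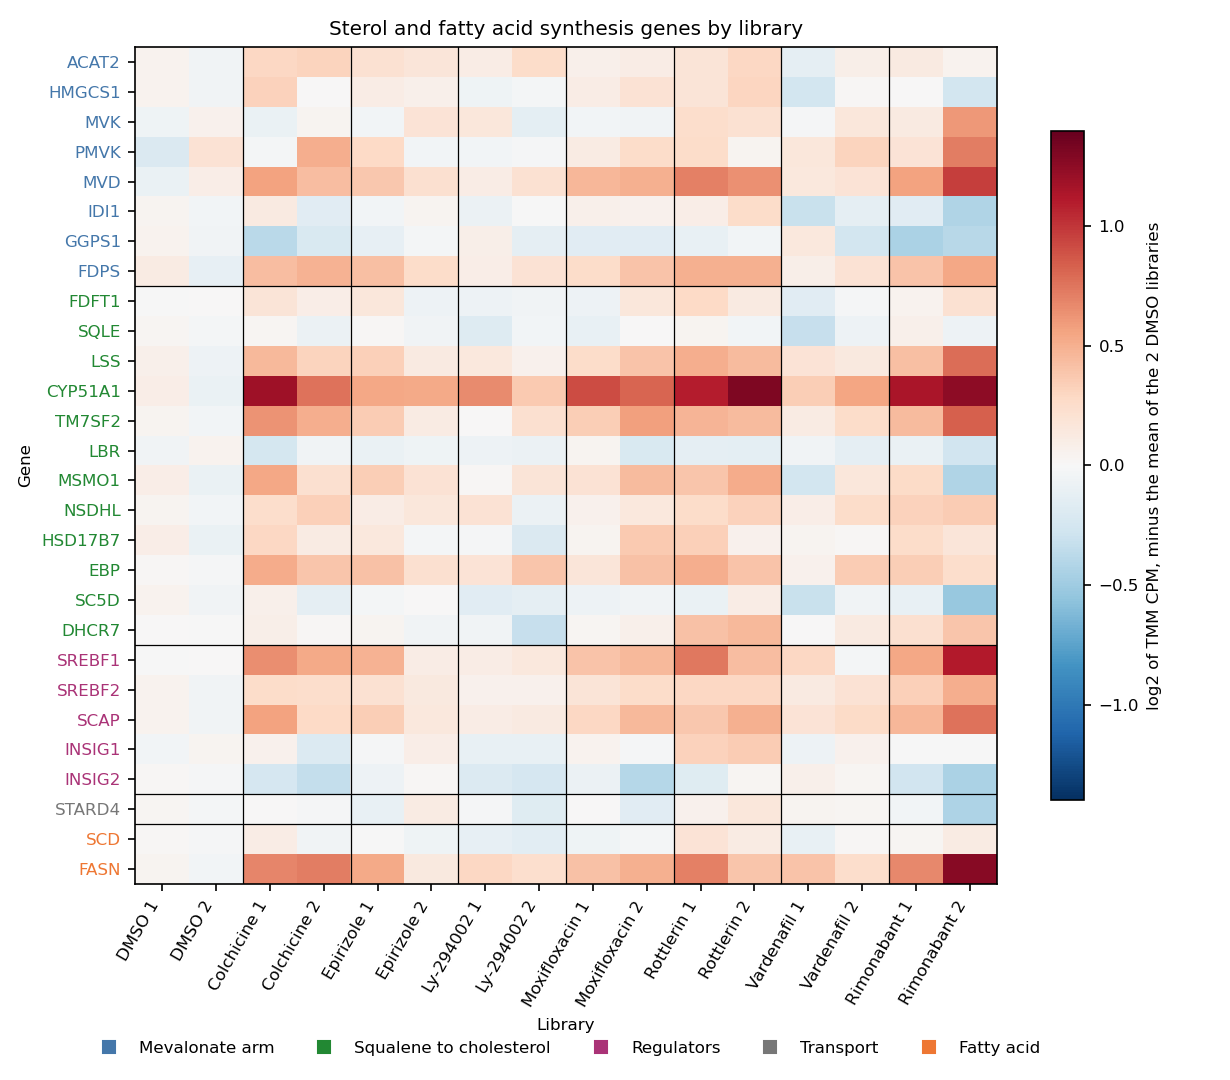
log2 TMM CPM of each of the 28 genes in each of the 16 libraries, minus the mean of the 2 DMSO libraries; red is above and blue below that mean, and gene names are coloured by role. CYP51A1, MVD and FASN are red in all 14 compound libraries, and LBR is blue in most.

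The mevalonate arm holds the early enzymes, and MVD, the decarboxylase that makes isopentenyl diphosphate, had the largest change in it under rimonabant. MVD was measured at 40.2 and 46.04 TMM CPM in the DMSO libraries, 63.4 and 58.1 with colchicine, 55.8 and 50.3 with epirizole, 46.3 and 49.99 with Ly-294002, 59.5 and 60.8 with moxifloxacin, 70.04 and 67.02 with rottlerin, 47.6 and 49.02 with vardenafil, and 63.6 and 84.3 with rimonabant. Every compound library lay above both DMSO libraries, with Rimonabant 2 highest. MVD rose under rimonabant by 0.78 (SE 0.12, adjusted p = 0.012) on the log2 scale, from 43.1 ± 4.14 to 73.95 ± 14.7 TMM CPM (mean ± SD, n = 2). Under rottlerin its log2 change was 0.67 (SE 0.12, adjusted p = 0.0591), under colchicine 0.49 and under moxifloxacin 0.48. None of these 3 passed in edgeR, and DESeq2 called MVD under rottlerin and colchicine.

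FDPS joins isoprenoid units into farnesyl diphosphate, the precursor of squalene. FDPS was measured at 87.7 and 74.6 TMM CPM in the DMSO libraries, 109 and 114 with colchicine, 108 and 96.6 with epirizole, 86.04 and 92.9 with Ly-294002, 96.5 and 106 with moxifloxacin, 114 and 114 with rottlerin, 85.7 and 93.3 with vardenafil, and 107 and 117 with rimonabant. Ly-294002 1 and Vardenafil 1 lay within the range of the DMSO libraries, and the other 12 compound libraries above it. FDPS rose under rimonabant by 0.47 (SE 0.10, adjusted p = 0.0177). Its log2 change was 0.49 (SE 0.10, adjusted p = 0.0657) under rottlerin and 0.46 (SE 0.10, adjusted p = 0.0545) under colchicine, both short of the threshold in edgeR and both called by DESeq2.

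The other 6 genes of the arm did not pass in any comparison in edgeR or DESeq2. The mevalonate kinases MVK and PMVK had log2 changes of 0.38 and 0.46 under rimonabant, and both were highest in Rimonabant 2, at 42.5 and 14.6 TMM CPM. HMGCS1, the synthase that makes HMG-CoA and a known SREBP target, ranged from 391 to 582 TMM CPM and had a log2 change of -0.12 (SE 0.12, adjusted p = 0.579) under rimonabant. The thiolase ACAT2 lay between -0.02 and 0.30 over the 7 compounds. The isomerase IDI1 had -0.29 under rimonabant and 0.18 under rottlerin. GGPS1, which leads away from sterols to prenyl groups, lay below DMSO in all 7 comparisons, from -0.41 to -0.02, with an adjusted p = 0.121 or more.

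CYP51A1, the lanosterol demethylase, had the largest change of the 28 in each of the 7 comparisons. CYP51A1 was measured at 3.40 and 2.99 TMM CPM in the DMSO libraries, 7.27 and 5.41 with colchicine, 4.66 and 4.62 with epirizole, 5.05 and 4.13 with Ly-294002, 5.99 and 5.62 with moxifloxacin, 6.83 and 7.87 with rottlerin, 4.07 and 4.70 with vardenafil, and 7.07 and 7.62 with rimonabant. All 14 compound libraries lay above both DMSO libraries. It rose under rimonabant by 1.20 (SE 0.21, adjusted p = 0.012) on the log2 scale, from 3.20 ± 0.288 to 7.34 ± 0.39 TMM CPM (mean ± SD, n = 2). Under rottlerin the log2 change was 1.20 (SE 0.21, adjusted p = 0.0591), which did not pass in edgeR. Under colchicine it was 0.99 (SE 0.21, adjusted p = 0.0536) and under moxifloxacin 0.86 (SE 0.21, adjusted p = 0.294). Vardenafil gave the smallest, 0.45 (SE 0.22, adjusted p = 0.89). DESeq2 called CYP51A1 under rottlerin and colchicine.

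These values rest on few reads, 78 to 233 per library. In the GENCODE 29 annotation, 2982 of the 3584 exon bases of CYP51A1 (83.2%) are shared with other genes, 2844 of them on the same strand with the protein-coding gene AC000120.2, which had 0 reads in every library. How reads in shared bases were assigned is not given in the sources used here, so the level of CYP51A1 may be that of only part of the gene. Its pseudogenes CYP51A1P3, CYP51A1P2 and CYP51A1P1 had 8 to 52, 4 to 16 and 2 to 17 reads per library. Over all libraries these came to 18.1%, 5.21% and 5.58% of the reads of CYP51A1. The mevalonate genes ACAT2 (52.27%) and GGPS1 (40.96%) also share much of their exon sequence with neighbours.

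LSS, which folds epoxidised squalene into lanosterol, was measured at 169.9 and 154 TMM CPM in the DMSO libraries, 222 and 202 with colchicine, 205 and 177 with epirizole, 179 and 169 with Ly-294002, 194 and 214 with moxifloxacin, 231 and 220.1 with rottlerin, 184 and 178 with vardenafil, and 217 and 279 with rimonabant. All but 1 of the 14 compound libraries lay above both DMSO libraries, the exception being Ly-294002 2. LSS rose under rimonabant by 0.61 (SE 0.11, adjusted p = 0.0122). Rottlerin gave a log2 change of 0.48 (SE 0.11, adjusted p = 0.0887) and colchicine 0.39, called by DESeq2 and not by edgeR.

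TM7SF2 and LBR encode sterol reductases that can carry out the same step after CYP51A1. TM7SF2 was measured at 46.99 and 44.4 TMM CPM in the DMSO libraries, 70.9 and 65.2 with colchicine, 58.5 and 49.5 with epirizole, 45.7 and 53.3 with Ly-294002, 57.98 and 67.99 with moxifloxacin, 63.8 and 62.2 with rottlerin, 49.5 and 54.5 with vardenafil, and 62.3 and 81.8 with rimonabant. It rose under rimonabant by 0.66 (SE 0.13, adjusted p = 0.0151), DESeq2 also called it under rottlerin and colchicine, and 13 of the 14 compound libraries lay above both DMSO libraries. LBR, also an inner nuclear membrane protein that binds lamins, lay below both DMSO libraries in 13 of the 14 compound libraries, with log2 changes from -0.18 to -0.08 and none past the threshold. With the GC offset described below, the value of LBR under rimonabant was 0.05. The difference between TM7SF2 and LBR was not tested.

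The other 8 sterol genes did not pass in edgeR, and of them DESeq2 called DHCR7, under rottlerin and in both joint tests. EBP, the sterol isomerase, lay above both DMSO libraries in all 14 compound libraries, at 11.01 to 15.9 TMM CPM over the 16, with log2 changes from 0.21 to 0.46. DHCR7, the reductase of the closing step to cholesterol, had 0.43 (SE 0.10, adjusted p = 0.0732) under rottlerin and 0.31 (SE 0.10, adjusted p = 0.0626) under rimonabant, and under the other 5 compounds from -0.18 to 0.07. MSMO1 lay at 0.45 under rottlerin and -0.04 under rimonabant, where its libraries were 253 and 156 TMM CPM, on opposite sides of DMSO at 224 and 196. The dehydrogenase NSDHL and HSD17B7 had 0.34 and 0.21 under rimonabant. The desaturase SC5D was lowest in Rimonabant 2, at 108 TMM CPM, and its log2 change there was -0.31. The squalene epoxidase SQLE, a known SREBP target, had log2 changes between -0.19 and 0.00, and the squalene synthase FDFT1 between -0.09 and 0.20.

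Among the regulators, both SREBP genes and SCAP rose under rimonabant, and the INSIG genes did not pass in edgeR. DESeq2 also called SREBF1 and SCAP under rottlerin and colchicine, and SREBF2 under rottlerin. SREBF1 was measured at 46.2 and 46.9 TMM CPM in the DMSO libraries, 73.2 and 67.4 with colchicine, 65.4 and 50.2 with epirizole, 49.99 and 51.5 with Ly-294002, 61.4 and 63.6 with moxifloxacin, 77.9 and 62.8 with rottlerin, 56.99 and 45.7 with vardenafil, and 67.6 and 100.4 with rimonabant. It rose under rimonabant by 0.85 (SE 0.18, adjusted p = 0.0181), with Rimonabant 2 well above Rimonabant 1. SREBF2, the promoter of which holds the sterol regulatory element shown above, was measured at 234 and 219.6 TMM CPM in the DMSO libraries, 270.1 and 268 with colchicine, 263 and 248 with epirizole, 237 and 236 with Ly-294002, 257 and 272 with moxifloxacin, 276 and 278 with rottlerin, 247 and 260.4 with vardenafil, and 285 and 322 with rimonabant. All 14 compound libraries lay above both DMSO libraries, though by little with Ly-294002. SREBF2 rose under rimonabant by 0.42 (SE 0.08, adjusted p = 0.0129), and its log2 changes under rottlerin and colchicine were 0.29 and 0.25. SCAP was measured at 84.7 and 79.4 TMM CPM in the DMSO libraries, 121 and 99.3 with colchicine, 104 and 90.7 with epirizole, 88.4 and 89.6 with Ly-294002, 99.9 and 112 with moxifloxacin, 107 and 116 with rottlerin, 93.98 and 99.04 with vardenafil, and 114 and 139 with rimonabant. Here too all 14 compound libraries lay above both DMSO libraries. SCAP rose under rimonabant by 0.62 (SE 0.12, adjusted p = 0.0124).

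The INSIG genes encode the proteins that hold SCAP in the endoplasmic reticulum, and INSIG1 is itself a known SREBP target. INSIG1 was measured at 77.2 and 81.2 TMM CPM in the DMSO libraries, 82.5 and 69.3 with colchicine, 78.1 and 84.7 with epirizole, 73.8 and 73.5 with Ly-294002, 82.1 and 78.3 with moxifloxacin, 98.7 and 102 with rottlerin, 75.1 and 82.6 with vardenafil, and 79.1 and 78.95 with rimonabant. It was highest in both rottlerin libraries, where its log2 change was 0.34 (SE 0.09, adjusted p = 0.117), and its log2 change under rimonabant was 0.00. DESeq2 called INSIG1 under rottlerin and in the joint test of any compound. INSIG2 was measured at 28.1 and 27.4 TMM CPM in the DMSO libraries, 23.6 and 21.98 with colchicine, 26.4 and 28 with epirizole, 24.3 and 23.6 with Ly-294002, 26.2 and 21 with moxifloxacin, 24.6 and 28.4 with rottlerin, 29.1 and 28.3 with vardenafil, and 23 and 20.4 with rimonabant. It lay below DMSO under 6 of the 7 compounds, most under rimonabant with -0.36 (SE 0.13, adjusted p = 0.0913). That value was -0.07 with the GC offset.

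STARD4, the soluble carrier that moves cholesterol between membranes, ranged from 71.9 TMM CPM in Rimonabant 2 to 108 in Rottlerin 2. Its log2 changes ran from -0.22 under rimonabant to 0.11 under rottlerin, none past the threshold.

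Of the fatty acid genes, FASN passed under rimonabant and SCD did not. FASN, the synthase of palmitate, was measured at 346 and 329 TMM CPM in the DMSO libraries, 542 and 556 with colchicine, 489 and 372 with epirizole, 412 and 398 with Ly-294002, 448 and 475 with moxifloxacin, 552 and 442 with rottlerin, 447 and 402 with vardenafil, and 538 and 818 with rimonabant. All 14 compound libraries lay above both DMSO libraries, and Rimonabant 2 stood far above the rest. FASN rose under rimonabant by 1.01 (SE 0.17, adjusted p = 0.0122), from 338 ± 12.3 to 678 ± 198 TMM CPM (mean ± SD, n = 2). Colchicine gave 0.70 (SE 0.17, adjusted p = 0.0802), and DESeq2 called FASN under colchicine and rottlerin. SCD was measured at 559.7 and 546 TMM CPM in the DMSO libraries, 596 and 533 with colchicine, 552 and 528 with epirizole, 510.3 and 500.5 with Ly-294002, 530.0 and 542 with moxifloxacin, 629.5 and 598 with rottlerin, 513 and 561 with vardenafil, and 562 and 599 with rimonabant. Its libraries stayed within a 1.26-fold range, and its log2 change under rimonabant was 0.07 (SE 0.08, adjusted p = 0.661). The largest for SCD was 0.15 under rottlerin.

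**Figure D3:**
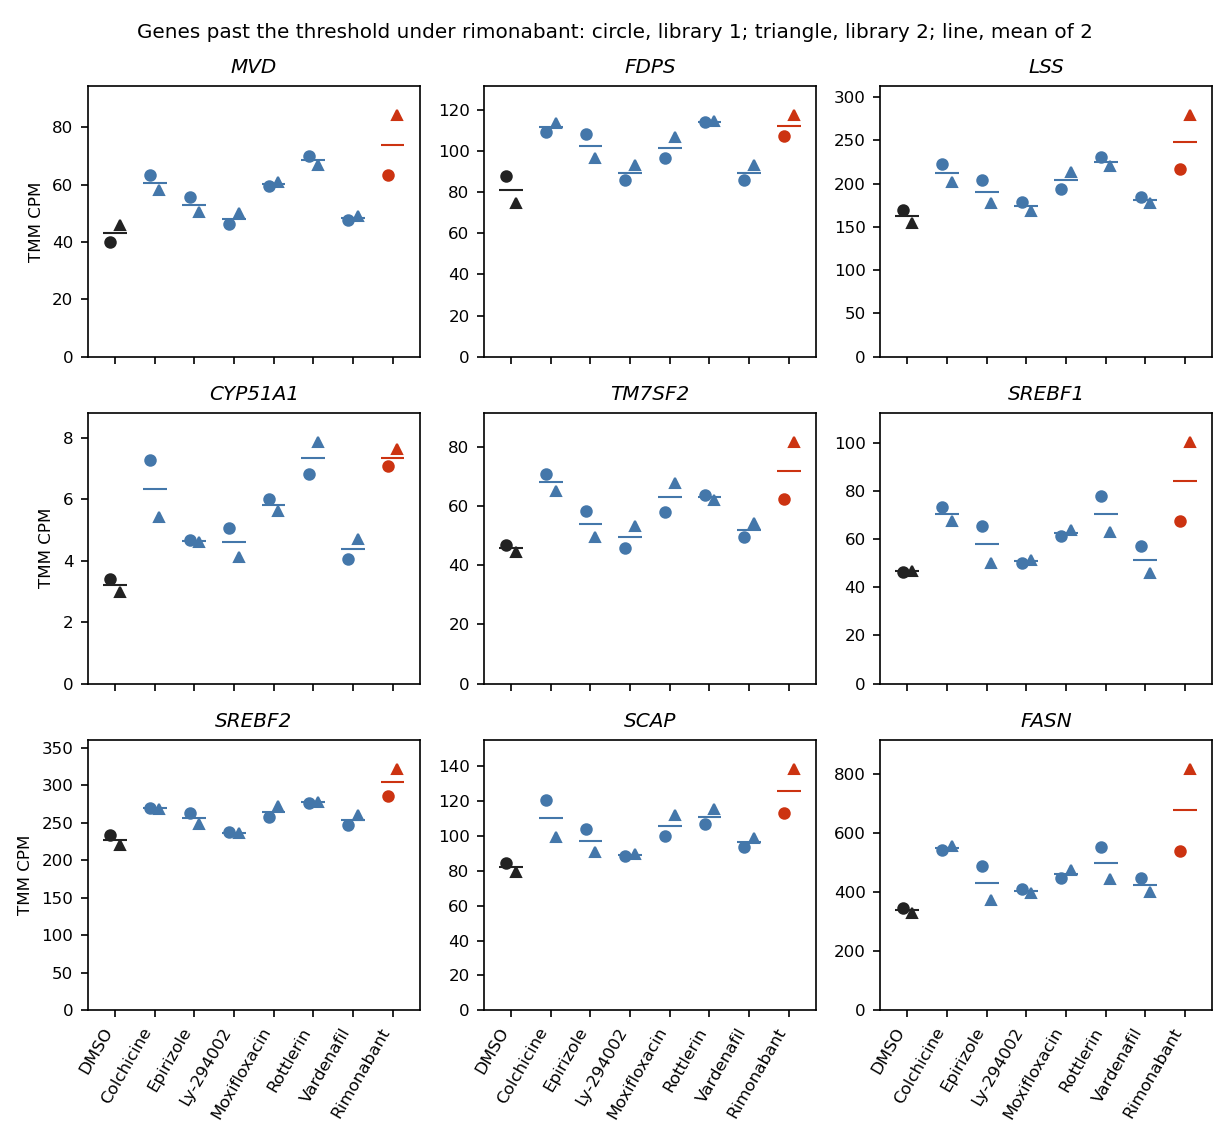
TMM CPM in each library for the 9 genes past the threshold under rimonabant; circles are library 1, triangles library 2, lines the mean of 2, with DMSO black and rimonabant red. MVD, CYP51A1, SREBF2, SCAP and FASN have every compound library above both DMSO libraries.

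Among known SREBP targets the log2 changes under rimonabant were -0.12 for HMGCS1, 0.00 for SQLE, 0.00 for INSIG1 and 0.07 for SCD, beside 1.01 for FASN, 0.78 for MVD, 0.61 for LSS and 0.47 for FDPS. The SEs of the first 4 were 0.12, 0.10, 0.09 and 0.08. The GC content of the first 4 transcripts was 40.76% to 47.13%, and that of the other 4 was 53.68% to 65.34%. With the GC offset the first 4 had 0.09, 0.24, 0.10 and 0.16, and the other 4 had 0.43, 0.27, 0.31 and 0.34. These are only some of the 28 genes, all of which come from the SREBP list. CYP51A1, at 40.59% GC over whole transcripts, had 1.20 without the offset and 1.45 with it. Without the offset IDI1 had -0.29, STARD4 -0.22, FDFT1 0.13 and DHCR7 0.31. Differences between any of these genes were not tested.

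The genes were also counted by whether a compound's libraries overlapped the DMSO libraries. Under rottlerin 21 of the 28 had both libraries above both DMSO libraries, against 23.6% of all tested genes, and 1 had both below, against 24.4%. Under rimonabant the counts were 17 above (background 26.8%) and 6 below (26.4%). Under colchicine they were 16 above (24.5%) and 3 below (25.8%). In these 3 comparisons, and in those of moxifloxacin, epirizole and vardenafil that follow, more of the 28 lay above than below.

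Under moxifloxacin 16 lay above (23.2%) and 4 below (24.4%). Under epirizole 14 lay above (19%) and 1, LBR, below (19%). Under vardenafil 12 lay above (19.4%) and 5 below (20%). Ly-294002 had 8 above (19.5%) and 8 below (19.5%), and a median log2 change of 0.00. The medians were 0.26 under rottlerin, 0.22 under colchicine, 0.13 under moxifloxacin, 0.10 under epirizole and 0.06 under vardenafil, where those of all genes lay between -0.01 and 0.00.

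MVD, CYP51A1, EBP, SREBF2, SCAP and FASN had all 14 compound libraries above both DMSO libraries. They are 6 of 28 (21.4%), against 3.54% of all tested genes. None of the 28 had all 14 below, against 3.59%. The same 2 DMSO libraries enter each of these counts.

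The composition of the transcripts moved with these results. Libraries differed in how genes of high GC content read against genes of low GC content. This is given as the log2 difference between the medians of the tenth of genes with the highest GC (61.41% or more) and the tenth with the lowest (39.49% or less), after centring each gene on its mean. The DMSO libraries had the lowest values, -0.279 and -0.309, and Rimonabant 2 the highest, 0.611, with the other 13 between -0.180 and 0.158. The transcripts of the 28 genes ranged from 37.18% GC for INSIG2 to 65.34% for FASN. Of the 9 genes called under rimonabant, 8 lay above the median GC of all tested genes, 48.87%, and CYP51A1 at 40.59% was the exception. That value is of whole transcripts. Most exon bases of CYP51A1 are shared with other genes, and the GC of the part where its reads were counted was not determined. The 14 genes of higher GC had a median log2 change of 0.47 under rimonabant and the 14 of lower GC -0.08. Under rottlerin the medians were 0.45 and 0.16, and under Ly-294002 0.12 and -0.08. Across the 28 genes, which share libraries and are not independent, the log2 change under rimonabant ran with GC with a Spearman rho of 0.768, beside 0.562 across 23352 genes.

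**Figure D4:**
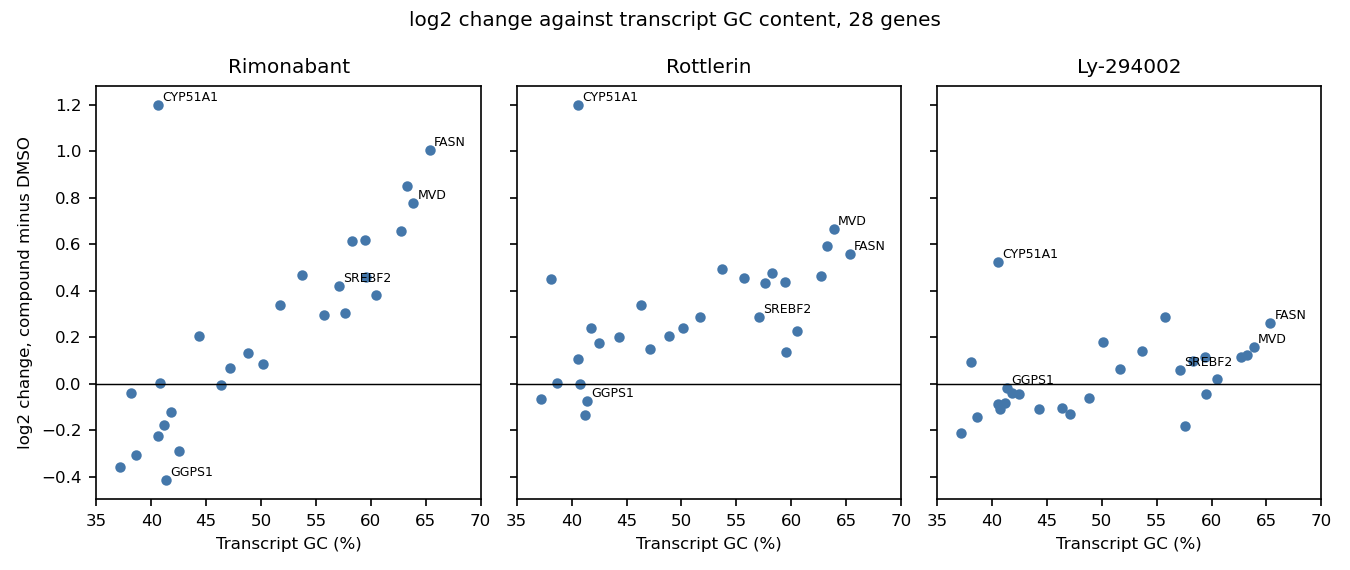
log2 change against DMSO (vertical axis) and GC content of the transcript in percent (horizontal axis) for the 28 genes, under rimonabant, rottlerin and Ly-294002. Values climb with GC under rimonabant, while CYP51A1, at 40.59% GC over whole transcripts, stands at 1.20.

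An offset per gene and library that takes out the relation with GC left none of the 28 past the threshold under rimonabant, and none of all tested genes. With this offset the 28 genes had a median of 0.16, with 23 above DMSO and 11 under an unadjusted p of 0.05. CYP51A1 had 1.45 (adjusted p = 0.0633), larger than without the offset, which took the GC of its whole transcripts. MVD went from 0.78 to 0.27, FASN from 1.01 to 0.43 and SREBF1 from 0.85 to 0.35. SREBF2 had 0.17, SCAP 0.28, LSS 0.31, FDPS 0.34 and TM7SF2 0.19 with the offset. All 9 genes kept their direction. Under rottlerin the median with the offset was 0.25, CYP51A1 had 1.35 (adjusted p = 0.0702) and MVD 0.38. With the offset 27 of the 28 lay above DMSO under rottlerin, 20 were under an unadjusted p of 0.05 and 0 passed. Without it these counts were 24, 14 and 0. The share of all genes under that unadjusted p with the offset is not given here.

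**Figure D5:**
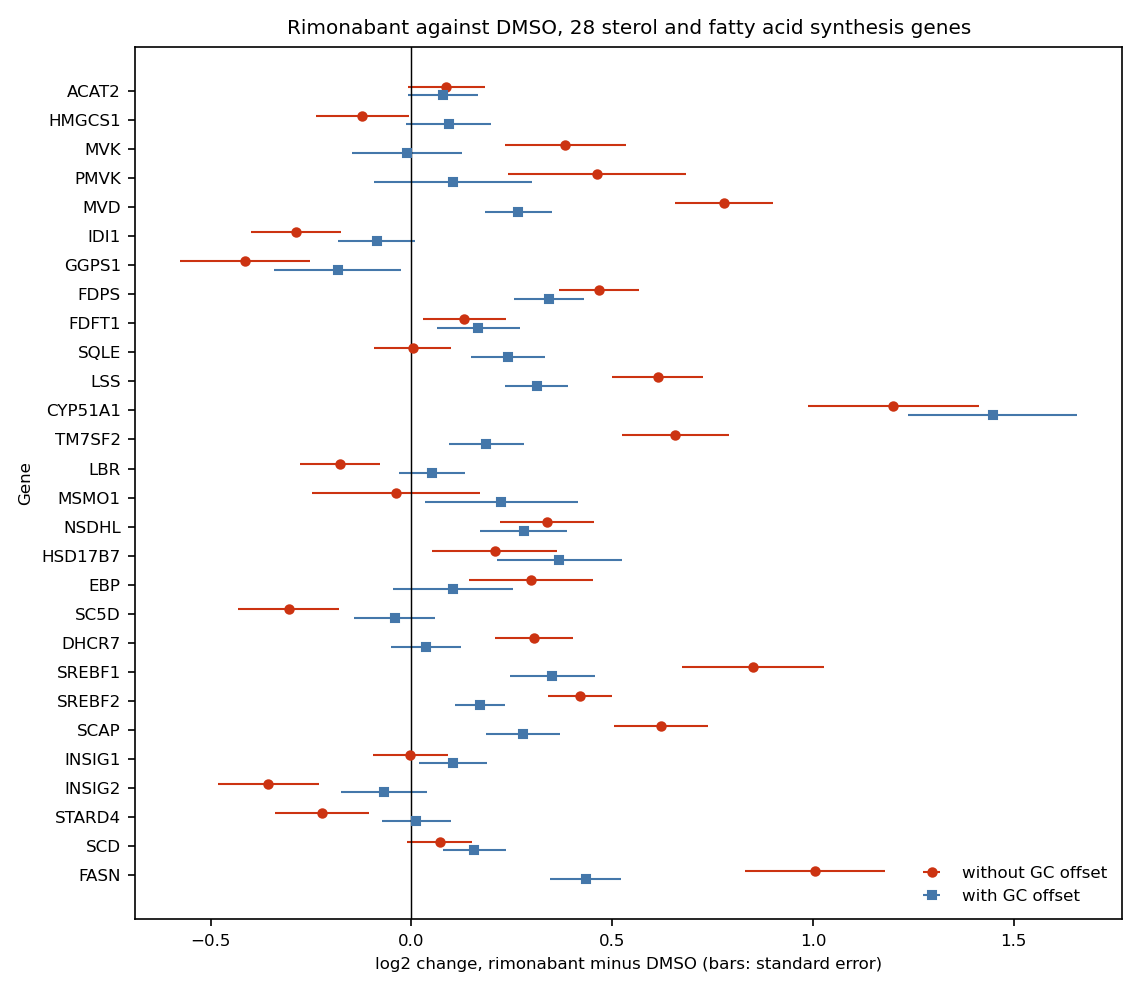
log2 change of the 28 genes under rimonabant against DMSO without (red circles) and with (blue squares) the GC offset; bars are standard errors. With the offset most genes move toward 0, and CYP51A1, with the GC of its whole transcripts, moves from 1.20 to 1.45.

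Summed RNA of cell type markers also differed between some groups. Such sums weigh the most abundant markers most and do not give cell numbers. Summed over 10 mesenchyme markers, DMSO libraries held 2109 to 2220.0 CPM, colchicine 1372 to 1585, rottlerin 1266 to 1485, moxifloxacin 996 to 1706, vardenafil 1407 to 2052, epirizole 1676 to 2488, Ly-294002 1911 to 2754 and rimonabant 1965 to 2174. All 10 lay below DMSO under colchicine, rottlerin, moxifloxacin and vardenafil by their log2 changes, and none passed the test. Summed over 12 liver and gut markers, DMSO held 6222 to 7834 CPM, colchicine 7597 to 9547, epirizole 8195 to 8395, Ly-294002 7740.0 to 8852, moxifloxacin 8585 to 9350.0, rottlerin 7364 to 11030.0, vardenafil 6398 to 8426 and rimonabant 5482 to 8950.0. Epirizole and moxifloxacin lay wholly above DMSO in this sum. Of the 12, all were higher under colchicine and epirizole by their log2 changes, 11 under rottlerin and moxifloxacin, 10 under vardenafil, 8 under rimonabant and 7 under Ly-294002. Of the same 12, CEBPA passed higher under rottlerin, and APOA1 and CEBPA under rimonabant. Summed over 14 endocrine markers, DMSO held 171 to 306 CPM and rimonabant 151 to 271. Of the 13 tested, 3 were higher under rimonabant by their log2 changes, with a median of -0.25. PCSK1N alone passed there, higher, where 7.8% of all genes were called. By log2 changes 13 were higher under moxifloxacin, 10 under epirizole, 8 under vardenafil, 5 under colchicine, 5 under rottlerin and 2 under Ly-294002. None passed under these compounds. Over 6 duct and progenitor markers DMSO held 858 to 955 CPM, rimonabant 995 to 1081 and colchicine 1041 to 1065. By log2 changes 4 of these 6 were higher under rimonabant, with a median of 0.14, and 5 under colchicine. KRT7 and KRT19 passed under rimonabant, both higher, where 5.03% of all genes were called higher. None of the 6 passed under colchicine. Over 8 proliferation markers DMSO held 359 to 385 CPM, rottlerin 254 to 309.5 and moxifloxacin 198 to 322, both below DMSO. Rimonabant held 381 to 403, colchicine 222 to 423, epirizole 247 to 370, vardenafil 308 to 393 and Ly-294002 361.6 to 431.5. By log2 changes 2 of these 8 were higher under rottlerin, 0 under moxifloxacin and 6 under rimonabant. None of the 8 passed under any compound. No mesenchyme, liver and gut, duct or proliferation marker was at or under 3 reads in both libraries of a group, and 1 endocrine marker was under colchicine. The part of these cell types in the sterol gene values was not tested.

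Libraries of a treatment differed in endocrine RNA, and the 28 genes were also tested against an endocrine score (mean log2 TMM CPM of 14 endocrine genes) within treatments. None of the 28 passed in edgeR, against 3.3% of all genes, with 8 under an unadjusted p of 0.05 (17%) and 0 in DESeq2 (5.62% of 21663 genes). The nearest was FDFT1, which had a log2 slope per unit of score of 0.12 (SE 0.03, adjusted p = 0.0545). TM7SF2 had 0.14 (SE 0.04, adjusted p = 0.092). With the score as a covariate, the count was 11 of 28 under rimonabant (10 higher and 1 lower), 8 under rottlerin and 7 under colchicine. Over all genes the same fits called 3464, 791 and 1310, against 1913, 2 and 48 without the covariate.

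Of the other genes in the pathway, most did not pass either. Among further genes of sterol and isoprenoid synthesis, PGGT1B, a subunit of a prenyltransferase, fell under rimonabant, with -0.42 (SE 0.10, adjusted p = 0.0256). Of 20 further genes of fatty acid and glycerolipid synthesis, 4 passed higher and 0 lower under rimonabant, with a list median of 0.34. FADS2, a fatty acid desaturase, rose by 0.71 (SE 0.12, adjusted p = 0.012), MID1IP1, which promotes acetyl-CoA carboxylase activity, by 0.63 (SE 0.13, adjusted p = 0.018), and the lipid hydrolase PNPLA3 by 0.60 (SE 0.14, adjusted p = 0.0237). MID1IP1 also passed under colchicine, with 0.73 (SE 0.13, adjusted p = 0.0461), the 1 gene of these lists called there.

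Over all genes 5.03% were called higher under rimonabant, and counts of 1 in the lists that follow are near that share. Sterol uptake, transport and esterification genes had 1 of 14 higher under rimonabant, the intestinal cholesterol transporter NPC1L1, with 1.01 (SE 0.28, adjusted p = 0.0455), named after its value was seen. Of the SREBP processing genes 1 of 12 was higher, VCP, an ATPase that extracts proteins from membranes, with 0.37 (SE 0.10, adjusted p = 0.0456). Sterol efflux genes had 1 of 8 higher, PLTP, a phospholipid transfer protein, with 0.71 (SE 0.17, adjusted p = 0.0246), and sterol oxidation genes 0 of 3. No gene of these lists passed under the other 5 compounds. The medians of the fatty acid and glycerolipid list were 0.36 under colchicine and 0.34 under rottlerin.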

How the data were processed

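Total RNA of 16 libraries (8 groups of 2) was depleted of ribosomal RNA and prepared with the KAPA RNA HyperPrep kit, per the labels' protocols. Per the labels' protocols, reads were trimmed with Trimmomatic (version 0.38), aligned with STAR (version 2.7.1a) and counted with featureCounts (version 1.6.0) or HTSeq. The submitters' processing notes name HTSeq and the build GRCh38. The strand setting and the handling of overlapping genes are not given in the sources used here. The authors deposited raw read counts per gene and library, which were used as deposited.

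Counts were tested with edgeR (version 4.0.16, R version 4.3.3): TMM factors, filterByExpr, robust quasi-likelihood F tests, two-sided, 1 fit of all 16 libraries, each group having its own coefficient, which left 8 residual degrees of freedom. Benjamini-Hochberg adjustment covered all 24515 tested genes, which held 99.92% of reads, at a threshold of 0.05. Adjusted p-values are from edgeR unless DESeq2 (version 1.42.0) is named. SEs are the log2 change divided by the square root of F. The fit was also run on simulated data, with less spread than these data and no GC differences between libraries. That run does not show how well the calls hold here. Totals of 23294377 to 30701868 reads set the precision, and a count of 0 allows up to 3 reads, which covers counting error only. The 2 libraries of every group differed by more than sampling noise.

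Gene GC content and exon overlaps came from GENCODE release 29, and 95.26% of tested genes had a GC value. Values in every library are given for MVD, CYP51A1, the regulators, FASN, SCD and further genes past the threshold. Up to 3 genes per pathway list are named, by smallest p over the 7 comparisons; 1 result of the further sterol and isoprenoid list, with that list's counts, is not reported here. The genes and lists were chosen with earlier results of these data known. Alternatives were other scalings, no filter on low counts, a replicate block, a GC offset, the endocrine score as a covariate, DESeq2, 2 groups alone and leaving out each library.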

Additional observations from a re-analysis of the deposited data

How the results depend on the processing

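Each group rests on 2 libraries, and CYP51A1 rests on 78 to 233 reads per library. Of the 28 genes, the count past the threshold under rimonabant was 9 with DESeq2, RLE and upper-quartile factors, no filter and the replicate block, and 10 with library totals. It was 0 with the GC offset, 0 with the replicate block and the GC offset, 4 with the 2 groups alone, and 0 to 14 leaving out 1 library. Under colchicine the count went from 0 to 8 with DESeq2, 2 with RLE factors, 9 without the filter, 7 with the endocrine score and 3 with the 2 groups alone. Under rottlerin it went from 0 to 11 with DESeq2, 10 without the filter, 8 with the endocrine score and 1 with the 2 groups alone, and under moxifloxacin to 4 without the filter. The mean of the 7 compounds gave 9 with DESeq2, 8 without the filter, 8 with the endocrine score and 0 to 9 leaving out 1 library (9 without Rimonabant 1). The joint test of any compound gave 11, 12 and 8 under the same 3 settings and 0 to 7 leaving out 1 library (7 without Rimonabant 1), and the test among compounds 6, 10 and 1. The slope on the endocrine score gave 1 with upper-quartile factors, library totals or no filter, 2 with the GC offset, 2 with the replicate block and the GC offset, and 0 to 1 leaving out 1 library (1 without Rottlerin 1, Rottlerin 2, Rimonabant 1 or Rimonabant 2). The cause was not tested. The replicate block changed no call among the 28 genes. For each group the log2 difference of library 1 from library 2 was taken over all tested genes, and these differences were correlated between groups. Over 28 pairs of groups the correlations ran from -0.459 to 0.374, with 8 over 0.1 and 13 under -0.1. The numbers were therefore not taken to pair libraries. None of the 9 genes called under rimonabant changed direction there under any of these alternatives.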

Other observations

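Within treatments, 4 genes of the other pathway lists rose with the endocrine score (edgeR), of 70 tested, beside 3.3% of all tested genes, which is a share of similar size, and they are named after their values were seen. They were AACS, which activates acetoacetate, with a log2 slope per unit of score of 0.18 (SE 0.05, adjusted p = 0.0437), and ACSS2, which activates acetate, with 0.24 (SE 0.06, adjusted p = 0.037). ACLY, which makes cytosolic acetyl-CoA from citrate, had 0.14 (SE 0.03, adjusted p = 0.02), and the cholesterol transporter NPC1L1 had 0.36 (SE 0.07, adjusted p = 0.00902). None of the 28 genes passed in that test.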
